A study of Mus musculus with 59 samples.

Results

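Strc, Gm35572, Cdk5rap1, Nrg4, Laptm4b and Ctr9 are 6 mouse genes, of 51810 rows in each gene table, whose RNA was higher in haematopoietic progenitors that had lost the histone chaperone Daxx. They were picked by name from the RNA-seq libraries described here. The differences between Daxx-deleted and wild-type (WT) libraries in untimed cells and at 3 weeks post induction (w.p.i.) are what chose them, so those differences are given below as a description, with no test. No numeric threshold came with the choice. Tests are given for the genes that lie beside them, for other genes of their pathways, and for the same genes after loss of Pu.1 alone in a separate line with intact Daxx.

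The cells came from the bone marrow of C57BL/6 mice. KLS cells (lineage-negative, c-Kit-positive and Sca-1-positive) hold the haematopoietic stem cells and multipotent progenitors, and granulocyte–monocyte progenitors (GMPs) are committed myeloid cells downstream of them. Every mouse, WT included, carried 1 copy of an inducible Cre (Cre +/-). Daxx-KO mice were Daxx F/F, DKO mice were Daxx F/F and Pu.1 F/F, WT mice were Daxx +/+, and the separate line compared Pu.1 F/F (Pu.1-KO) with Pu.1 +/+. The untimed libraries (2 Daxx-KO and 2 WT per cell type) carry no mouse line and no time on their labels. The study's methods also describe KLS cells and GMPs sorted from transplanted mice, and the labels do not say whether the untimed libraries are these, so untimed and 3 w.p.i. libraries may differ in source as well as in time. The 3 w.p.i. libraries (3 Daxx-KO, 3 WT and 2 DKO per cell type), the Pu.1 line (2 Pu.1-KO and 2 WT per cell type, 3 w.p.i.) and the WT libraries at 24 w.p.i. (2 per cell type) were of the Mx1Cre line, in which Cre is switched on by interferon signalling and not in blood cells alone. The labels do not say whether a library was made from 1 mouse or from a pool, although the study's figure legends count mice per genotype. The p values measure only the spread between these libraries. Daxx-deleted libraries at 24 w.p.i., multipotent progenitors and long-term stem cells were not analysed here.

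Daxx places the histone variant H3.3 on chromatin together with Atrx, at telomeres, pericentric repeats and retroelements, and has been studied as a repressor of transcription. Pu.1, encoded by Spi1, is the transcription factor that directs myeloid development. The 6 genes belong to no common pathway. Strc encodes stereocilin, an extracellular protein known from the hair bundles of the inner ear. Gm35572 is a long intergenic non-coding RNA with no assigned function. Cdk5rap1 is a methylthiotransferase that modifies mitochondrial tRNAs. Nrg4 is a secreted ligand of the receptor ErbB4, from the neuregulin family. Laptm4b is a membrane protein of lysosomes and endosomes, and Ctr9 is a scaffold subunit of the PAF1 complex, which travels with elongating RNA polymerase II.

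The genes lie on 5 chromosomes of mm10. Strc (ENSMUSG00000033498) occupies chr2:121363728-121387168 and Cdk5rap1 (ENSMUSG00000027487) chr2:154335380-154373010. Gm35572 (ENSMUSG00000110462) is annotated at chr8:71752026-71781322, and Nrg4 (ENSMUSG00000032311) at chr9:55220222-55326844. These 4 are on the minus strand. Laptm4b (ENSMUSG00000022257) at chr15:34238028-34284302 and Ctr9 (ENSMUSG00000005609) at chr7:111028951-111056377 are on the plus strand. Apart from Gm35572, which is a lincRNA, all are protein-coding.

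RefSeq start sites of GRCm38.p6 gave a promoter window for 4 of the 6 genes. Windows of 250 bases before the start are shown for the 3 genes with the largest differences in untimed KLS cells, because each of these windows lies inside the longer GENCODE gene and holds no annotated exon. The search covered both strands for the letters GAGGAA (the core of a Pu.1 site), for TATAAA (the TATA box), for the CCAAT box and for TTAGGG (the telomere repeat unit), and matches stand in capitals. In the Strc window (chr2:121380941-121381190, minus strand) CCAAT was read from the opposite strand, where it appears as ATTGG, and GAGGAA from the strand shown:
Strc: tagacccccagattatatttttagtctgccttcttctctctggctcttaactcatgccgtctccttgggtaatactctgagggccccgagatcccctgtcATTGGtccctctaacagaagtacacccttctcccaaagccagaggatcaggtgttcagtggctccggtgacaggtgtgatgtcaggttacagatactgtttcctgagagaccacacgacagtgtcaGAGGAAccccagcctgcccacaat
The Gm35572 window (chr8:71756196-71756445, minus strand) held CCAAT:
Gm35572: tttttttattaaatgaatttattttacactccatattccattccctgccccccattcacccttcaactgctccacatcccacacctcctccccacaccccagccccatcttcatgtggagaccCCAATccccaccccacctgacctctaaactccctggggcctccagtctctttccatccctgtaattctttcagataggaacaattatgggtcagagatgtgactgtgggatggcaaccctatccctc
The Nrg4 window (chr9:55283626-55283875, minus strand) held TTAGGG:
Nrg4: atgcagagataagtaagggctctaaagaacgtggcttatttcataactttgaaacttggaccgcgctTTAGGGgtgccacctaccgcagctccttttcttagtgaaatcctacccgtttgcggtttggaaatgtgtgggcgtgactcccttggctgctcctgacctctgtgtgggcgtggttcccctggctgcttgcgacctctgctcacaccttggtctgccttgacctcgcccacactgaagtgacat
Gm35572 has a second window and Cdk5rap1 has 1, so that 5 windows were searched. Of these, 3 held a CCAAT box, 1 a Pu.1 core, 1 the telomere unit and 0 a TATA box. Among 32851 RefSeq promoter windows of the same length, 33.8% held a CCAAT box, 23.3% a Pu.1 core, 9.32% the telomere unit and 12.4% a TATA box. The windows held 4 (Strc), 0 and 1 (Gm35572), 15 (Cdk5rap1) and 10 (Nrg4) CpG dinucleotides, against a median of 6 and quartiles of 2 and 16 over all windows. No motif was shared by all of the windows. A match is only a run of letters and says nothing of binding.

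Daxx itself was low in each library labelled as deleted. In untimed KLS cells it stood at 33.9 and 29.7 normalized counts in Daxx-KO and at 119 and 138 in WT, and in untimed GMPs at 44.6 and 22.8 against 215 and 143. At 3 w.p.i. the Daxx-KO and DKO libraries of both cell types lay between 55.1 and 102, and the WT libraries between 423 and 688. The log2 difference of Daxx-KO from WT was −1.98 in untimed KLS cells, −2.42 in untimed GMPs, −2.44 in 3 w.p.i. KLS cells and −3.18 in 3 w.p.i. GMPs (adjusted p 0.00158, 0.000984, 0.00373 and 0.000763, limma). Every value below is such a normalized count, gene reads divided by 1 size factor per library, unless another scale is named. Spi1, the gene of Pu.1, was not lower in the libraries labelled as Pu.1-deleted in a way that passed the test. It stood at 3330.4 and 2994 in DKO KLS cells against 1669 to 2320.0 in WT (log2 0.76, adjusted p = 0.0155, limma, higher), at 3846 and 2989 against 3348 to 4604 in GMPs (−0.26, adjusted p = 0.997), at 2920.5 and 1307 against 2764 and 2080.1 in the Pu.1 line's KLS cells (−0.30, adjusted p = 0.747) and at 2589 and 2707 against 3394 and 3934 in its GMPs (−0.46, adjusted p = 0.153). These counts cover the whole gene and do not check a deletion that removes a part of it, so DKO and Pu.1-KO are used below as the labels give them. In the untimed tables Spi1 was higher in Daxx-KO, by 1.42 in KLS cells and 0.86 in GMPs (adjusted p 6.57e-05 and 0.000160). Libraries held 3388906 to 29335964 gene reads, and the untimed set was the least even (3388906 to 22647397).

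Other cell markers moved with the genotype in some tables. In untimed KLS cells the 6 KLS markers summed to 4833 to 5151 in Daxx-KO and to 24925 to 25013 in WT, and the 7 GMP markers to 11785 to 15335 against 806 to 1383, with no marker of either list at 0 in every library of a group. Of the GMP list Mpo, Elane, Ctsg, Prtn3, Cebpa and Csf1r were called higher there. Of the KLS list Kit, Cd34, Mecom, Hlf and Procr were called lower, but Ly6a was called higher. Plasma cell markers (3 genes) summed to 8.75 to 19.4 in these Daxx-KO libraries and to 1716 to 6396 in WT. In untimed GMPs the 7 neutrophil markers summed to 35041 to 50480 in Daxx-KO and 4649 to 6389 in WT. S100a8, S100a9, Ngp and Lcn2 were called higher there, but Camp was called lower. The GMP list was mixed in the same comparison, with Elane and Prtn3 called higher and Mpo, Fcgr3 and Csf1r lower. In KLS cells at 3 w.p.i. the 8 B-lineage markers, of which Ms4a1 was at 0 in every library, summed to 1558 to 32987 in Daxx-KO and 468 to 757 in WT, and the neutrophil markers to 138057 to 169689 in DKO against 525 to 28320 in WT. None of the 7 tested B-lineage markers was called in that Daxx-KO comparison. Of the 7 neutrophil markers, S100a8, Camp and Ngp were called higher in DKO. The part of these cells in the differences of the 6 genes was not tested, and in bulk RNA a change in the number of cells of a kind cannot be told apart from a change in RNA per cell.

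Strc stood at 0 to 7.06 in the WT libraries of the untimed and 3 w.p.i. tables and was read in every library without Daxx. In untimed KLS cells the WT libraries stood at 1.72 and 1.72, which is 2 reads in all, and the Daxx-KO libraries at 1219 and 1030.3. In untimed GMPs the values were 0 and 0.904 in WT and 819 and 759 in Daxx-KO. The groups stood far apart in both populations. By reads, the ratio was 622 in KLS cells (95% exact interval 172 to 5140.0, 4514 reads against 2) and 1442 in GMPs (259 to 56975, 2264 reads against 1), intervals that cover counting error only.

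At 3 w.p.i. Strc was read at lower levels in Daxx-KO, and again above every WT library. KLS cells held 52.1, 200.1 and 94.2 with Daxx deleted against 4.32, 7.06 and 3.00 in WT, a read ratio of 24.8 (14.8 to 44.7). GMPs held 67.4, 208 and 89.0 with Daxx deleted against 0, 1.77 and 1.09 in WT, a read ratio of 123 (41.8 to 599, 378 reads against 3). Daxx-KO 2 was the highest library in both populations. Among the 13508 genes tested in untimed KLS cells the log2 difference of Strc (8.69 ± 0.31 SE, n = 2 per group) ranked 3 from the top, and among 15200 in KLS cells at 3 w.p.i. (4.18 ± 0.58, n = 3 per group) it ranked 28.

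Gm35572, the non-coding RNA, had the pattern most like that of Strc among the 6. It stood at 1.72 and 0 in untimed WT KLS cells and at 862 and 614 in Daxx-KO, and at 1.30 and 3.61 in untimed WT GMPs and 598 and 694 in Daxx-KO. The read ratio was 776 in KLS cells (139 to 30655, 2814 reads against 1) and 254 in GMPs (109 to 784). At 3 w.p.i. KLS cells held 353, 173 and 264 in Daxx-KO against 3.24, 15.9 and 1.00 in WT, and GMPs 63.5, 99.8 and 106 against 0, 3.53 and 0. Its log2 difference of 8.79 ± 0.53 was the highest of all genes tested in untimed KLS cells, where the WT level rested on 1 read. Strc and Gm35572 passed the filter on low values only through their Daxx-deleted libraries, since their WT means were under 10 in each of these 4 tables. The other 4 genes passed it in WT as well.

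Cdk5rap1, the tRNA methylthiotransferase, was expressed in WT cells and higher in Daxx-KO. Untimed KLS cells held 210 and 351 in WT and 1134 and 1280.0 in Daxx-KO, and untimed GMPs 169 and 261 against 833 and 914. At 3 w.p.i. the Daxx-KO values were 1371, 1097 and 756 in KLS cells, where WT held 325, 448 and 322. In GMPs they were 1219.7, 791 and 598, where WT held 98.7, 299 and 174. No Daxx-KO library reached down to a WT library. The ratio of the means lay between 2.95 (KLS cells, 3 w.p.i.) and 4.56 (GMPs, 3 w.p.i.).

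Nrg4, the ErbB4 ligand, differed most in the untimed tables. Untimed KLS cells held 215 and 82.7 in WT and 3388 and 3765 in Daxx-KO, and untimed GMPs 224 and 239 against 3532 and 3360.0, so that the means stood 24.0 and 14.9 times higher. In GMPs at 3 w.p.i. Daxx-KO held 711, 879 and 802 and WT 243, 203 and 175, a ratio of 3.85. KLS cells at 3 w.p.i. went against the label of a gene raised wherever Daxx is lost. There the Daxx-KO libraries held 759, 616 and 1323 and the WT libraries 703, 538 and 397. Daxx-KO 2 lay below WT 1, and the log2 difference was 0.68 ± 0.28 (n = 3 per group).

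Laptm4b, the lysosomal membrane protein, was between 2.21 and 3.52 times higher in Daxx-KO. Untimed KLS cells held 317 and 338 in WT and 745 and 699 in Daxx-KO, and untimed GMPs 129 and 114 against 404 and 452. At 3 w.p.i. KLS cells held 1146, 845 and 978 in Daxx-KO against 350.2, 354 and 263, and GMPs 291, 172 and 279 against 122, 60.9 and 91.4. The groups did not overlap in any of the 4 tables. By table the ratio of the means was 2.21 and 3.52 in untimed KLS cells and GMPs and 3.07 and 2.71 at 3 w.p.i.

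Ctr9, the PAF1 subunit, had larger differences by value in KLS cells than in GMPs. Untimed KLS cells held 948 and 909 in WT and 1958 and 1940.0 in Daxx-KO. In KLS cells at 3 w.p.i. the values were 5506, 6654 and 3994 with Daxx deleted against 1496, 1819 and 1396 in WT, a ratio of 3.43. In GMPs the differences were small beside these, with 833 and 911 in Daxx-KO against 622 and 637 when untimed, and 2917, 1931 and 2296 against 1795, 1664 and 1601 at 3 w.p.i. The GMP ratios were 1.39 and 1.41. KLS cells and GMPs were scaled separately by the authors, so the difference between the populations was not tested.

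**Figure D1:**
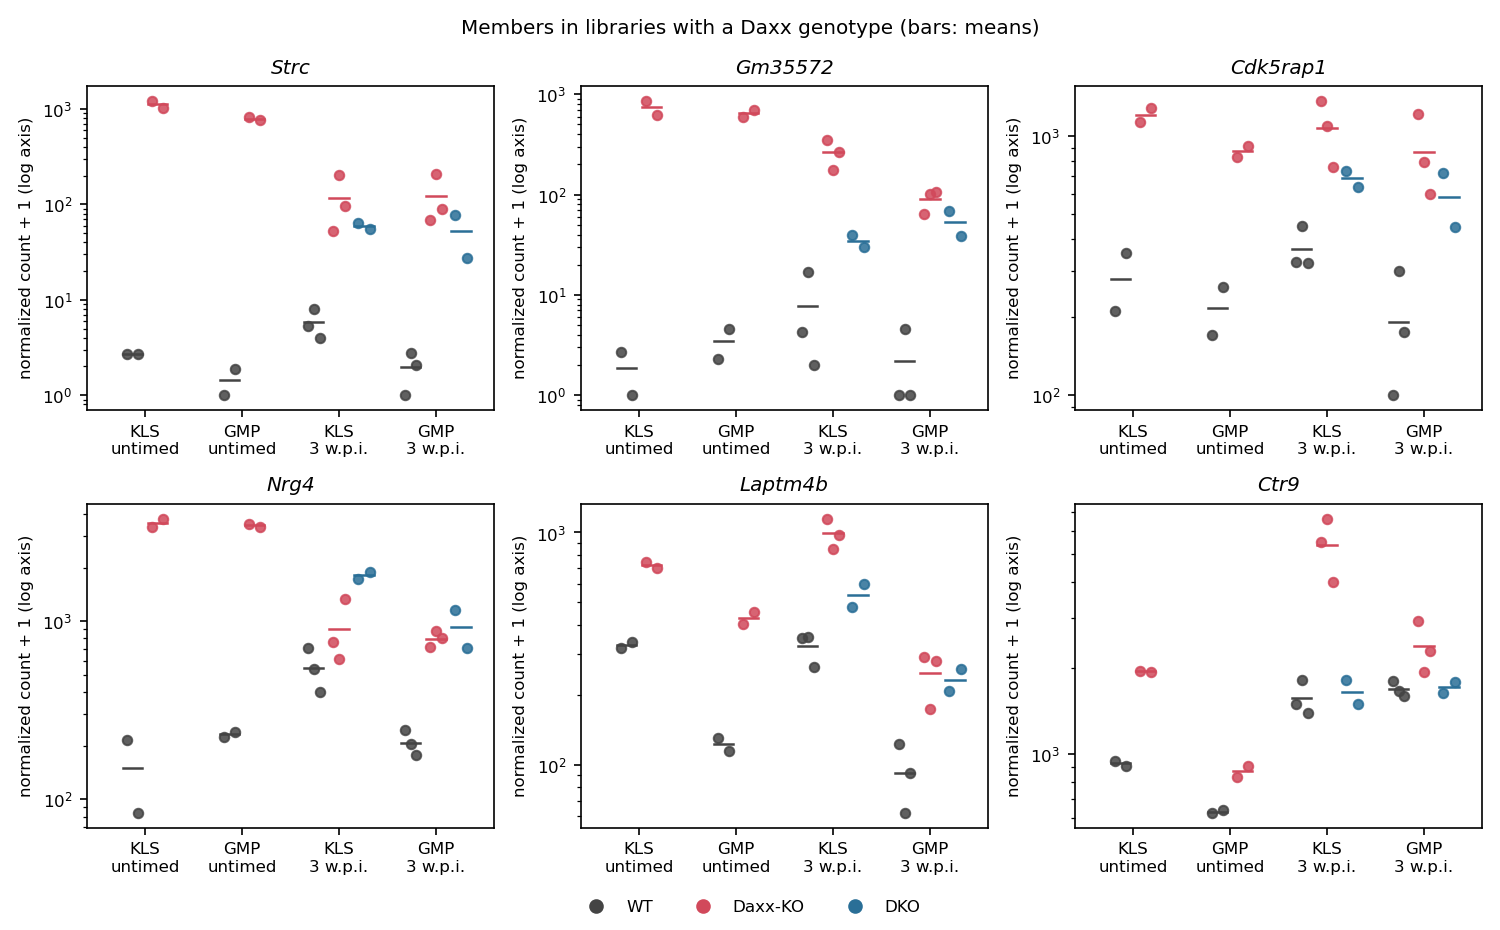
Normalized count plus 1 (log axis) of each gene in WT (dark grey), Daxx-KO (red) and DKO (blue) libraries of the untimed and 3 w.p.i. tables, 1 point per library, with bars at group means. Strc and Gm35572 stand lowest in WT (normalized counts 0 to 15.9), Nrg4 overlaps between Daxx-KO and WT in 3 w.p.i. KLS cells, and DKO libraries of Ctr9 lie among WT.

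Taking the 6 genes side by side, all libraries of Daxx-KO lay above all of WT for 6 of 6 in untimed KLS cells and for 6 of 6 in untimed GMPs. Of all genes tested, 32.9% and 33.1% did so in those 2 tables. At 3 w.p.i. the count was 5 of 6 in KLS cells, Nrg4 being the exception, and 6 of 6 in GMPs, against 9.07% and 4.64% of all genes. The median log2 difference of the 6 was 3.44 and 2.97 in untimed KLS cells and GMPs and 1.69 and 2.11 at 3 w.p.i., while that of all genes tested lay between −0.01 and 0.03. Because these differences chose the genes, the counts are no evidence about them. Across all 4 tables, 22 of 11749 genes (0.187%) were higher without overlap each time, and 5 of the 6 genes were among them (Strc, Gm35572, Cdk5rap1, Laptm4b and Ctr9).

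Within the Daxx-KO mice the genes did not share an order. The KLS and GMP libraries of Daxx-KO at 3 w.p.i. carry the same 3 numbers, taken here as the same 3 animals. Strc had the order 2, 3, 1 from the highest in both populations, Cdk5rap1 1, 2, 3 and Laptm4b 1, 3, 2. For Gm35572, Nrg4 and Ctr9 the order in KLS cells was not that in GMPs. Of 13465 genes tested in both tables, 16.15% had the same order of the 3 animals in both. Over the 24 libraries with a Daxx genotype, each table centred on its mean, the log2 values of Strc and Gm35572 had the highest correlation of the 15 pairs (Pearson r = 0.962) and those of Nrg4 and Ctr9 the lowest (r = 0.373). These correlations rest on the same split by genotype that chose the genes and describe these libraries only.

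With Pu.1 deleted beside Daxx, 5 of the genes still lay above WT and 1 lay among WT. The comparison asks which of the differences persist in cells without both factors, in 2 DKO and 3 WT libraries per cell type. Strc stood at 63.2 and 54.0 in DKO KLS cells and at 77.1 and 26.6 in DKO GMPs, and Gm35572 at 38.3 and 28.9 and at 68.0 and 37.5. All of these were above every WT library of their table, and the Gm35572 values in KLS cells were below every Daxx-KO library. By reads, DKO exceeded WT 11.9-fold for Strc (6.97 to 22.0) and 4.68-fold for Gm35572 (2.86 to 7.93) in KLS cells, and 51.8-fold (17.2 to 255) and 39.6-fold (15.01 to 148) in GMPs.

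Cdk5rap1 held 735 and 638 in DKO KLS cells and 718 and 446 in DKO GMPs, above every WT library. Laptm4b held 477 and 601 in KLS cells and 207 and 256 in GMPs, also above WT. In KLS cells the DKO values of Cdk5rap1 and Laptm4b were below every Daxx-KO library, while in GMPs they overlapped Daxx-KO. Nrg4 held 1735 and 1877 in DKO KLS cells, above all Daxx-KO and WT libraries. In GMPs its DKO libraries held 1149.5 and 707, on either side of the Daxx-KO range of 711 to 879. Ctr9 went against the label. Its DKO libraries held 1809 and 1498 in KLS cells and 1636 and 1786 in GMPs, and WT libraries 1396 to 1819 and 1601 to 1795, so that the groups overlapped in both populations. The DKO libraries of Ctr9 were below every Daxx-KO library in both.

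On the log2 scale the DKO difference from WT in KLS cells was 3.42 ± 0.65 for Strc, 2.71 ± 0.81 for Gm35572, 0.92 ± 0.25 for Cdk5rap1, 1.76 ± 0.32 for Nrg4, 0.74 ± 0.21 for Laptm4b and 0.08 ± 0.22 for Ctr9. As a share of the Daxx-KO difference these are 81.9%, 48.4%, 60.3%, 259%, 46.0% and 4.40%. In GMPs the shares were 79.3%, 86.4%, 75.4%, 109%, 95.6% and 4.38% in the same order. The Daxx-KO and DKO comparisons share their WT libraries. Higher in DKO without overlap were 5 of 6 genes in KLS cells and 5 of 6 in GMPs, against 26% and 10.1% of all genes tested. Over all 6 comparisons of deleted cells with WT, 8 genes (0.0681% of 11749) were higher without overlap each time, and Strc, Gm35572, Cdk5rap1 and Laptm4b were 4 of them. The choice of the genes used these WT libraries, and Strc and Gm35572 passed the filter only through Daxx-deleted libraries. The DKO counts are therefore no evidence about the genes either.

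**Figure D2:**
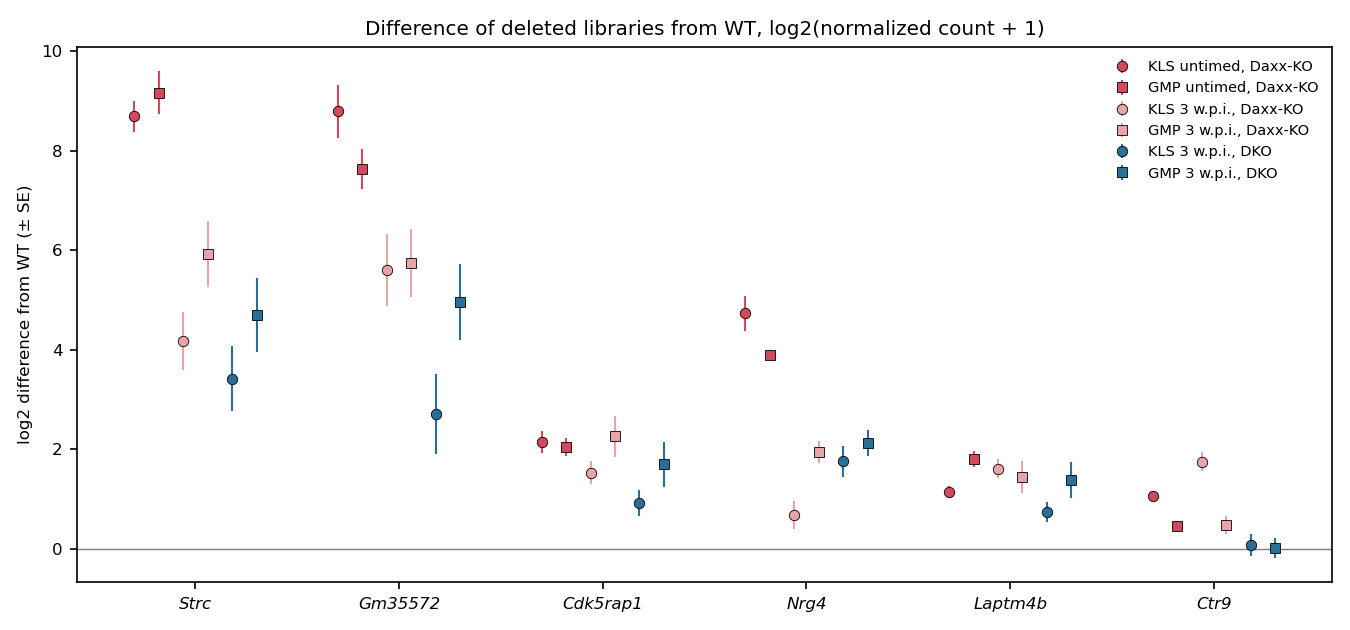
Log2 difference from WT (points, ± SE bars) of each gene for Daxx-KO in the 4 tables and for DKO in both populations at 3 w.p.i., on log2(normalized count + 1). Strc and Gm35572 reach 9.16 and 8.79 in untimed cells, and Ctr9 in DKO lies at 0.08 and 0.02.

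In the Pu.1 line Daxx was not floxed, so its contrast is not one of Daxx loss. The tables of this line were among those in which the genes were looked up, and whether their values entered the choice is not stated, so the p values here are not independent evidence. The contrast asks whether loss of Pu.1 alone moves them. In KLS cells 0 of 6 were called, where 0.81% of the 23459 genes tested were called in either direction, and at an unadjusted p under 0.05 there were also 0 of 6. DESeq2 and edgeR called 0 of 6 as well. Of the 23459 genes, 6071 had an unadjusted p under 0.05, DESeq2 called 1357 and edgeR 1920. In GMPs, where 17.6% of 19337 genes were called, 2 of 6 were, both lower. Cdk5rap1 stood at 308 and 251 in WT and 95.5 and 183 in Pu.1-KO, a log2 difference of −1.06 ± 0.32 (adjusted p = 0.0112, limma). Ctr9 stood at 2125 and 2241 in WT and 1066 and 1640.4 in Pu.1-KO (−0.72 ± 0.24, adjusted p = 0.0201). The groups did not overlap for either gene, and 8.49% of all genes were called lower. In the same comparison all 7 neutrophil markers (S100a8, S100a9, Camp, Ngp, Ltf, Lcn2 and Retnlg) were called higher, with a summed normalized count of 165097 to 167803 in Pu.1-KO and 29276 to 36540 in WT, 5 of 7 tested B-lineage markers were called higher, and Ctsg, Prtn3 and Fcgr3 of the 7 GMP markers were called lower. The part of these shifts in the lower values of Cdk5rap1 and Ctr9 was not tested. Without WT a or WT b neither call held (adjusted p 0.322 and 0.412 for Cdk5rap1, 0.379 and 0.644 for Ctr9), without Pu.1-KO a Cdk5rap1 was not called (0.121), and edgeR gave Cdk5rap1 an adjusted p of 0.0584.

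The remaining values of the Pu.1 line follow. Strc held 48.8 and 73.4 in WT KLS cells and 117 and 145 in Pu.1-KO (log2 1.11 ± 0.71, adjusted p = 0.288, limma), and Gm35572 58.3 and 51.5 against 73.7 and 228 (1.23 ± 0.72, adjusted p = 0.248). Nrg4 held 298 and 308 against 554 and 638 (0.97 ± 0.58, adjusted p = 0.254). These 3 genes did not overlap between the groups, as was so for 33.7% of all genes in the higher direction. Cdk5rap1, Laptm4b and Ctr9 lay lower without overlap in KLS cells (log2 −0.78, −0.44 and −0.96), as did 31.9% of all genes, and Daxx itself lay at 478 and 295 against 920.3 and 625 (−1.01, adjusted p = 0.234, limma). As reads in 1000000 gene reads, Laptm4b overlapped between these groups (24.3 to 26.4 in Pu.1-KO, 24.65 to 25.05 in WT). On that scale Cdk5rap1 overlapped too (18.9 to 27.4 and 25.4 to 31.5), while Ctr9 did not. Ctr9 passed the test in KLS cells when Pu.1-KO a was left out (adjusted p = 0.0265). In GMPs Strc, Gm35572 and Nrg4 overlapped between the groups. Laptm4b held 110.0 and 106 in WT GMPs and 139 and 130.1 in Pu.1-KO (0.31 ± 0.37, adjusted p = 0.553), apart as were 31.5% of all genes in the higher direction, and the lower direction held 33.5%.

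**Figure D3:**
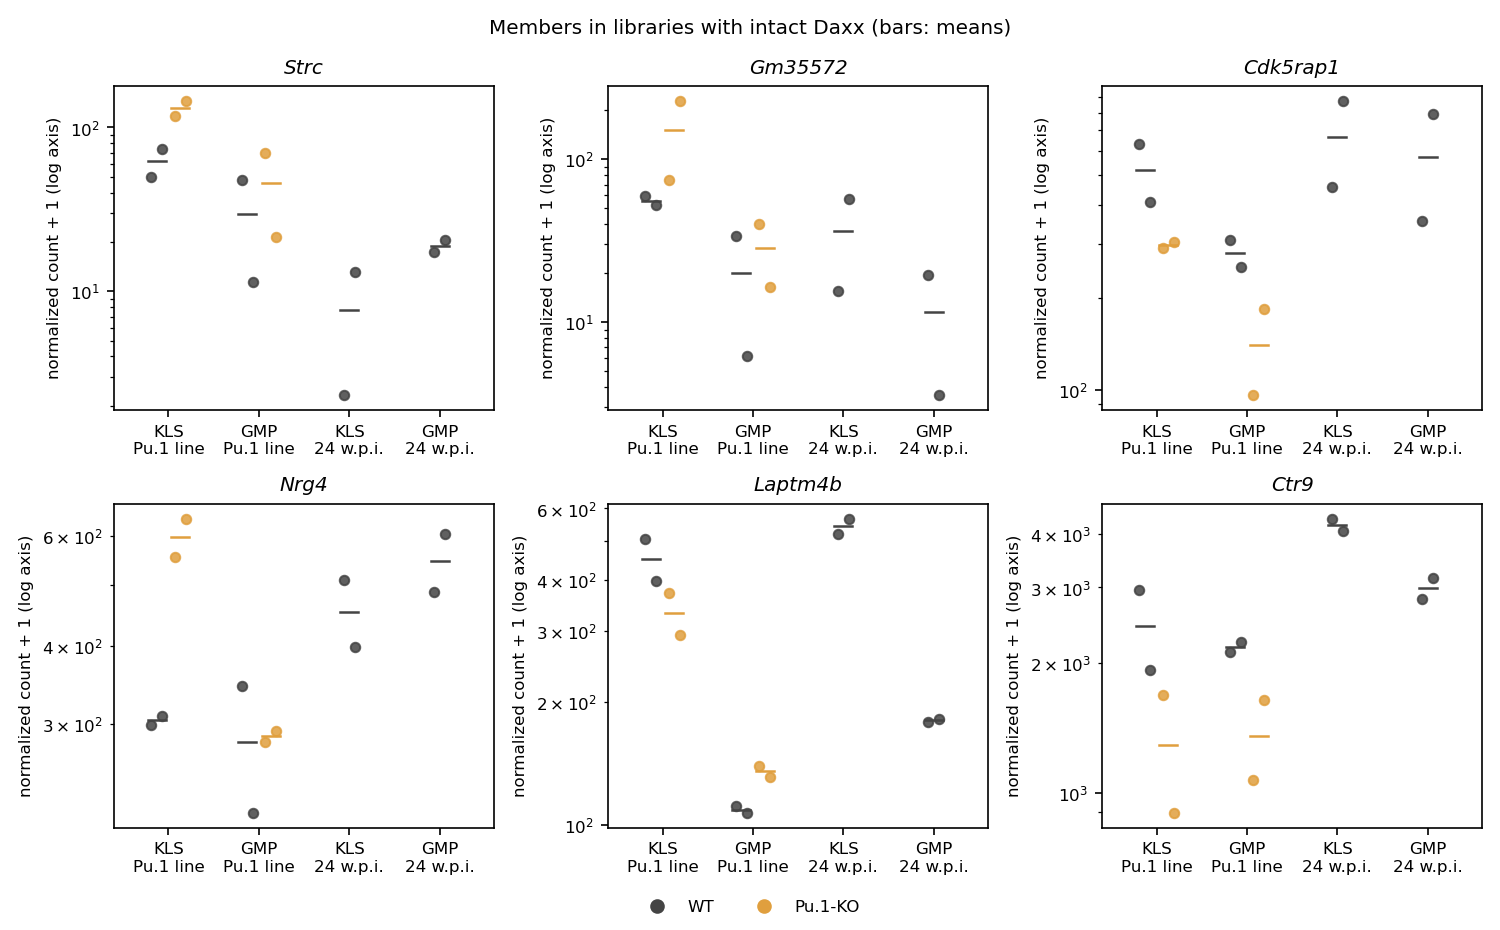
Normalized count plus 1 (log axis) of each gene in libraries with intact Daxx, 1 point per library with bars at group means: WT (dark grey) and Pu.1-KO (orange) of the Pu.1 line at 3 w.p.i., and WT at 24 w.p.i. In the Pu.1 line Strc lies between 10.4 and 145 before 1 is added, and Cdk5rap1 and Ctr9 are lower in Pu.1-KO GMPs.

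Strc and Gm35572 were not silent in all cells with intact Daxx. The WT libraries of the Pu.1 line held 48.8 and 73.4 of Strc in KLS cells and 46.6 and 10.4 in GMPs, and those at 24 w.p.i. held 1.32 and 12.1 in KLS cells and 16.4 and 19.6 in GMPs. Gm35572 at 24 w.p.i. stood at 14.5 and 56.3 in WT KLS cells and at 18.6 and 2.55 in WT GMPs. The Pu.1-line libraries held 24539 to 30291 genes above 0, and the others 17066 to 22416. The part of this in the levels of Strc and Gm35572 was not tested.

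Because the tables were scaled separately, levels across them are set side by side in rpm (a gene's reads in 1000000 gene reads of its library), with no test. Strc ranged from 0.0707 ± 0.100 rpm in untimed WT GMPs to 163 ± 18.0 in untimed Daxx-KO KLS cells (SD, n = 2 each). Untimed Daxx-KO GMPs came next at 113 ± 8.30, and Pu.1-KO KLS cells ranked 3 at 10.4 ± 3.83, with ranges that overlapped those of Daxx-KO GMPs (9.72 ± 5.70, n = 3) and Daxx-KO KLS cells (8.65 ± 5.36, n = 3) at 3 w.p.i. Gm35572 ran from 0.0975 ± 0.169 in WT GMPs at 3 w.p.i. to 107 ± 24.6 in untimed Daxx-KO KLS cells. For Strc 11 of the 15 neighbouring pairs in the order of 16 groups overlapped in range, and for Gm35572 14.

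For Cdk5rap1 and Nrg4 the 6 Daxx-deleted groups took the 6 highest places among the 16 groups. Differences between Daxx-KO and WT chose these genes, so this order is a description and no evidence about them. Cdk5rap1 ranged from 11.7 ± 3.56 rpm in Pu.1-KO GMPs to 175 ± 16.3 in untimed Daxx-KO KLS cells, and Nrg4 from 16.1 ± 2.63 in WT GMPs at 3 w.p.i. to 518 ± 42.7 in untimed Daxx-KO KLS cells. For each, 12 of the 15 neighbouring pairs overlapped. Laptm4b was ordered by cell type as well as genotype, from 7.04 ± 2.06 in WT GMPs at 3 w.p.i. to 105 ± 3.85 in untimed Daxx-KO KLS cells, with 9 pairs that overlapped. Daxx-KO GMPs at 3 w.p.i. (20.1 ± 5.88) ranked 10 there, below WT KLS cells. Ctr9 had the narrowest range, from 95.6 ± 20.8 in Pu.1-KO KLS cells to 408 ± 87.1 in Daxx-KO KLS libraries at 3 w.p.i., and 10 pairs overlapped. WT KLS cells at 24 w.p.i. ranked 4 for Ctr9 (176 ± 6.35), above the WT groups of the other tables.

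Per kilobase of exon, Strc was the lowest of the 6 genes in 15 of the 16 groups. In untimed WT KLS cells the highest was Laptm4b at 25.1 rpm per kb and Strc stood at 0.0412. In untimed Daxx-KO KLS cells Nrg4 led with 85.3 and Strc stood at 26.2. In untimed Daxx-KO GMPs the lowest was Ctr9 (15.7) and not Strc. At 3 w.p.i. Ctr9 led in Daxx-KO and WT libraries of both populations, with 51.0 in Daxx-KO KLS cells, and Nrg4 led in DKO KLS cells with 20.8.

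Other subunits of the PAF1 complex gave 1 call by limma, against the direction of Ctr9. All 5 measured partners (Paf1, Cdc73, Leo1, Rtf1 and Wdr61, which the list also held under its newer symbol Skic8) were tested in each comparison. Among the 8 comparisons the only limma call was Wdr61 in untimed GMPs, where 33% of all genes were called, at 206 ± 7.48 in Daxx-KO and 280.4 ± 4.70 in WT (log2 −0.44, adjusted p = 0.0417, limma). It was not called by DESeq2 or in the fits without the filter, with the replicate block or without Daxx-KO 1, WT 1 or WT 2. In Daxx-KO at 3 w.p.i. edgeR and DESeq2 also called 0 of 5, and 0 had an unadjusted p under 0.05. Limma called 0.257% (KLS cells) and 0.0948% (GMPs) of all genes there. In DKO KLS cells, where limma called 17.6% of all genes, limma and edgeR called 0 of 5, 1 had an unadjusted p under 0.05, and DESeq2 called Paf1. In KLS cells at that time, where the Ctr9 level was highest, Rtf1 stood at 2306 ± 309 in Daxx-KO and 2166 ± 215 in WT (adjusted p = 0.855) and Cdc73 at 2221 ± 164 against 2280.3 ± 272 (adjusted p = 0.941, both limma).

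The neuregulin and ErbB list of 14 genes, ligands and receptors around Nrg4, held 8 tested genes in untimed KLS cells. Nrg2, a ligand of the same family, was higher there at 1011 ± 214 against 231 ± 22.9 (log2 2.11 ± 0.17, adjusted p = 5.72e-05, limma) and Btc, a ligand of ErbB4 and Egfr, was lower at 2.95 ± 2.02 against 32.7 ± 7.33 (−3.18 ± 0.75, adjusted p = 0.0168). The background was 23.1% of genes called. The Nrg2 call held under all 11 alternatives, and that of Btc was lost without the filter and without Daxx-KO 1 or Daxx-KO 2. In untimed GMPs, where 33% of all genes were called and 16.6% were called higher, 7 genes of the list were tested. Nrg2 (0.59 ± 0.09) and Hbegf (3.17 ± 0.59) were higher and Nrg1 (−1.87 ± 0.13) and Erbb3 (−1.59 ± 0.54) lower. The calls of Nrg2, Hbegf and Nrg1 held under all 12 alternatives and that of Erbb3 under 5. Erbb4, the receptor of Nrg4, was low, at 8.41 ± 2.03 in Daxx-KO and 43.9 ± 37.7 in WT KLS cells (adjusted p = 0.0890 by limma, although DESeq2 called it) and 12.2 ± 0.0511 against 10.4 ± 1.87 in GMPs (adjusted p = 0.824). At 3 w.p.i. no gene of the list was called by limma or edgeR in Daxx-KO or DKO against WT (1 of 9 had an unadjusted p under 0.05 in Daxx-KO KLS cells), and DESeq2 called Nrg1 in DKO GMPs. Limma called 0.257% (KLS cells) and 0.0948% (GMPs) of all genes in Daxx-KO, and 17.6% and 0.292% in DKO. In the Pu.1 line limma called 0 of 13 in KLS cells, with 7 at an unadjusted p under 0.05, and edgeR and DESeq2 each called 3 (Erbb4, Nrg1 and Nrg3). Of all 23459 genes tested in these cells, limma called 190, edgeR 1920 and DESeq2 1357, and 6071 had an unadjusted p under 0.05. In GMPs of the Pu.1 line 5 of 12 were called. Nrg3, Tgfa, Egfr and Erbb4 were higher, as were 9.15% of all genes, and Nrg2 lower, and all 5 calls were lost without WT a or WT b.

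Lysosomal membrane genes, the company of Laptm4b, were higher in part in the untimed tables. In KLS cells 6 of 12 were called, all higher: Laptm5, Lamp1, Lamp2, Cd63, Scarb2 and Npc1. Cd63, a tetraspanin of late endosomes, rose most, at 332 ± 30.4 against 134 ± 12.1 (log2 1.30 ± 0.17, adjusted p = 0.000948, limma), and Npc1, the cholesterol exporter, least (0.43 ± 0.13, adjusted p = 0.0415). The median log2 difference of the 12 was 0.41, and 10.6% of all genes were called higher. Leaving out Daxx-KO 1 gave 1 call, and the count was 0 without Daxx-KO 2, 4 without WT 1 and 3 without WT 2. In untimed GMPs 4 were called higher (Lamp2, Scarb2, Npc1 and Atp6v0d1), against 16.6% of all genes, with counts of 1 without WT 1 or WT 2, 2 without Daxx-KO 2 and 7 without Daxx-KO 1. GMP markers moved with the genotype in the untimed KLS libraries and neutrophil markers in the untimed GMPs, and their part in these calls was not tested. At 3 w.p.i. limma and edgeR called 0 of 12 in Daxx-KO, where limma called 0.257% (KLS cells) and 0.0948% (GMPs) of all genes. Unadjusted p was under 0.05 for 2 and 0, and DESeq2 called 1 (Cd63) in KLS cells. Over all genes, unadjusted p was under 0.05 for 1777 of 15200 and 433 of 13714, and DESeq2 called 342 in KLS cells. In DKO KLS cells Cd63 was higher (2.40 ± 0.25, adjusted p = 0.000494) and Laptm5, Npc1 and Slc38a9 were lower, against 17.6% of all genes called in either direction, and the count was 2 without DKO 1. In DKO GMPs no tool called a member of the list. In the Pu.1 line limma called none, and in its KLS cells edgeR called Cd63 and DESeq2 Cd63 and Npc1.

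Of 9 tRNA modification enzymes around Cdk5rap1, 1 was called in untimed KLS cells, where 23.1% of all genes were (Nsun3, 368 ± 7.49 against 261 ± 16.1, log2 0.50, adjusted p = 0.0368, limma) and 2 in untimed GMPs, where 33% were (Mto1 higher by 0.47, Trmt5 lower at −0.78). DESeq2 called none of these 3. Nsun3 was also lost without Daxx-KO 1, Daxx-KO 2 or WT 1, Mto1 without Daxx-KO 2 or WT 1, and Trmt5 without WT 1 or WT 2. In Daxx-KO at 3 w.p.i. limma, edgeR and DESeq2 called 0 of 9, and 0 had an unadjusted p under 0.05. The share of all genes called by limma there was 0.257% in KLS cells and 0.0948% in GMPs. Trit1, which makes the isopentenyl base that Cdk5rap1 modifies further, was lower in DKO KLS cells at 523 ± 48.4 against 907 ± 62.4 (−0.80 ± 0.16, adjusted p = 0.00914), a call lost without DKO 1 and under the replicate block. In Pu.1-KO GMPs, where Cdk5rap1 was lower, Mto1, Gtpbp3, Trit1 and Trmt61b were lower too, as were 8.49% of all genes, all 4 lost without WT a or WT b.

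Among 8 relatives of stereocilin and genes of the hair cell coat, Otogl (otogelin-like) alone passed the filter in the Daxx tables. It was higher in untimed KLS cells at 622 ± 69.7 against 24.97 ± 20.7 (log2 4.86 ± 0.50, adjusted p = 0.000232, limma) and in untimed GMPs at 1523 ± 74.1 against 222 ± 28.0 (2.78 ± 0.12, adjusted p = 2.51e-06). In GMPs the call held under all 12 alternatives, and in KLS cells it was lost without Daxx-KO 1 or Daxx-KO 2 (1 of 2 libraries left in the group). At 3 w.p.i. Otogl stood at 32.2 ± 14.9 in Daxx-KO and 39.6 ± 39.7 in WT KLS cells and at 203 ± 54.7 against 190 ± 67.8 in GMPs (adjusted p 0.890 and 1.00). DKO libraries held 61.7 and 65.2 in KLS cells (adjusted p = 0.363) and 327 and 425 in GMPs, above all 3 WT libraries there (1.02 ± 0.34, adjusted p = 0.427). In the Pu.1 line Otoa, the otoancorin gene, was higher in Pu.1-KO GMPs (1.56 ± 0.41, adjusted p = 0.00296), which did not hold without WT a, WT b or Pu.1-KO a.

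The known partners of Daxx gave 1 call in untimed KLS cells, where 23.1% of all genes were called, and 2 in untimed GMPs, where 33% were. Of 8 genes (Atrx, H3f3a, H3f3b, Hira, Setdb1, Trim28, Morc3 and Pml), Trim28 was higher in untimed Daxx-KO KLS cells at 1920 ± 230 against 1340.2 ± 175 (log2 0.52 ± 0.13, adjusted p = 0.0217, limma) and lower in untimed GMPs at 997 ± 7.63 against 1464 ± 154 (−0.55 ± 0.10, adjusted p = 0.00325). Atrx, the remodeller that works with Daxx, was higher in untimed GMPs (0.50 ± 0.08, adjusted p = 0.00164) and stood at 5710 ± 127 against 5611 ± 279 in untimed KLS cells (adjusted p = 0.879). In Daxx-KO at 3 w.p.i. limma, edgeR and DESeq2 called 0 of 8 (unadjusted p under 0.05 for 2 in KLS cells and 0 in GMPs), and Atrx held 9085 ± 1632 and 9417 ± 889 in KLS cells (adjusted p = 0.921). Among all genes, limma called 0.257% in KLS cells and 0.0948% in GMPs. An unadjusted p under 0.05 held for 1777 of 15200 and 433 of 13714. H3f3b (0.67) and Pml (0.63) were higher in DKO KLS cells, as were 9.24% of all genes, calls lost under the replicate block and without DKO 1 or WT 1, and for H3f3b also without DKO 2 or WT 2. In Pu.1-KO GMPs Hira, Setdb1 and Trim28 were lower, as were 8.49% of all genes, calls lost without WT a or WT b. The Trim28 call was lost without Daxx-KO 1, Daxx-KO 2 or WT 1 in KLS cells and without WT 2 in GMPs.

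Genes that overlap or lie next to the 6 were tested, up to 2 measured genes on each side at any distance. In untimed KLS cells 26 neighbours were tested and 6 were called higher (Pdia3, Ckmt1, Fcho1, Gm5373, Ube2q2 and Fbxo22) and 2 lower, and in untimed GMPs 6 were higher (Ppip5k1, Ckmt1, Ube2q2, Scaper, Fbxo22 and Cpq) and 4 lower. All genes were called higher in 10.6% and 16.6% of cases. Without Daxx-KO 1 or Daxx-KO 2 the KLS count of 8 went to 3 and 1, and the GMP count of 10 was 6 without WT 1 or WT 2. In Daxx-KO at 3 w.p.i. 0 of 26 (KLS cells) and 0 of 25 (GMPs) were called by limma or edgeR, with 10 and 2 at an unadjusted p under 0.05, and DESeq2 called 3 (Gm5373, Mrvi1 and Tmem266) and 1 (Fbxo22). Limma called 0.257% and 0.0948% of all genes there. An unadjusted p under 0.05 held for 1777 of 15200 and 433 of 13714 genes, and DESeq2 called 342 and 80. In DKO KLS cells Pdia3, Fcho1, Ube2q2 and Fbxo22 were higher (9.24% of all genes were called higher), a count that was 0 without DKO 1 and 1 without WT 1 or WT 2. In DKO GMPs, where 0.292% of all genes were called, limma and edgeR called none of 25 (unadjusted p under 0.05 for 4) and DESeq2 called Fbxo22.

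Fbxo22, an F-box subunit of a ubiquitin ligase, overlaps the 3′ part of Nrg4 by 4212 bases on the opposite strand (chr9:55208925-55224433). It stood at 236 and 210.1 in untimed WT KLS cells and 1029 and 1222 in Daxx-KO (log2 2.33 ± 0.14, adjusted p = 1.44e-05, limma), and at 263 and 275 against 965 and 998 in untimed GMPs (1.86 ± 0.11, adjusted p = 1.01e-05). These calls held under each of the 11 and 12 alternatives. At 3 w.p.i. it held 443, 623 and 773 in Daxx-KO KLS cells and 627, 509 and 511 in WT (0.13 ± 0.21, adjusted p = 0.846), and overlapped between these groups as Nrg4 did. In GMPs it held 715, 640 and 714 with Daxx deleted against 365, 402 and 432 in WT, apart but not called (0.79 ± 0.16, adjusted p = 0.275). DKO KLS cells held 1103 and 926 (0.89 ± 0.23, adjusted p = 0.0284, not called without WT 1, WT 2, DKO 1 or DKO 2, or with the replicate block). Whether the counting used strand is not given in the sources used here, so reads of the overlap could belong to either gene. The difference of Nrg4 was larger by value than that of Fbxo22 in the same libraries, 4.73 ± 0.35 against 2.33 ± 0.14 on the log2 scale in untimed KLS cells and 3.89 ± 0.10 against 1.86 ± 0.11 in GMPs.

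Ckmt1, a mitochondrial creatine kinase, meets the 3′ end of Strc tail to tail with an overlap of 10 bases (chr2:121357714-121363737, plus strand). It stood at 0 and 1.72 in untimed WT KLS cells and 186 and 154 in Daxx-KO (log2 6.69 ± 0.66, adjusted p = 0.000188, limma), which did not hold without Daxx-KO 1 or Daxx-KO 2. In untimed GMPs it was at 0 in both WT libraries and at 101 and 148 in Daxx-KO (adjusted p = 8.21e-05), at least 87.9-fold higher on a floor of 3 reads over the WT group, and was called under all 12 alternatives. At 3 w.p.i. KLS cells held 20.4, 43.1 and 14.7 with Daxx deleted against 1.08, 13.2 and 2.00 in WT, apart but not called (2.46 ± 0.92, adjusted p = 0.378). DKO KLS cells held 4.79 and 5.78, within the range of WT. Ckmt1 was under the filter in GMPs at 3 w.p.i. In both untimed tables it passed the filter only through its Daxx-KO libraries, so its p values there are not independent evidence.

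The neighbours of the other genes had no common direction. Beside Gm35572, Fcho1 was higher in untimed Daxx-KO KLS cells (log2 1.03 ± 0.13, adjusted p = 0.000591, limma, not called without Daxx-KO 1 or Daxx-KO 2) and stood at 0.75 ± 0.23 in KLS cells at 3 w.p.i. (adjusted p = 0.282). Beside Ctr9, Mrvi1 was lower in untimed Daxx-KO KLS cells at 25.2 and 23.9 against 170.3 and 229 (−2.96 ± 0.29, adjusted p = 0.000166, not called without Daxx-KO 2), the opposite direction from Ctr9. At 3 w.p.i. it held 996, 338 and 583 in Daxx-KO KLS cells, 112, 68.0 and 153 in WT and 68.0 and 127 in DKO, an order of groups like that of Ctr9 in the same table (Daxx-KO against WT 2.45 ± 0.44, adjusted p = 0.0642). Pdia3, on the other side of Strc from Ckmt1 at a distance of 26607 bases, was higher in untimed KLS cells and lower in untimed GMPs (0.64 ± 0.12 and −0.46 ± 0.09).

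**Figure D4:**
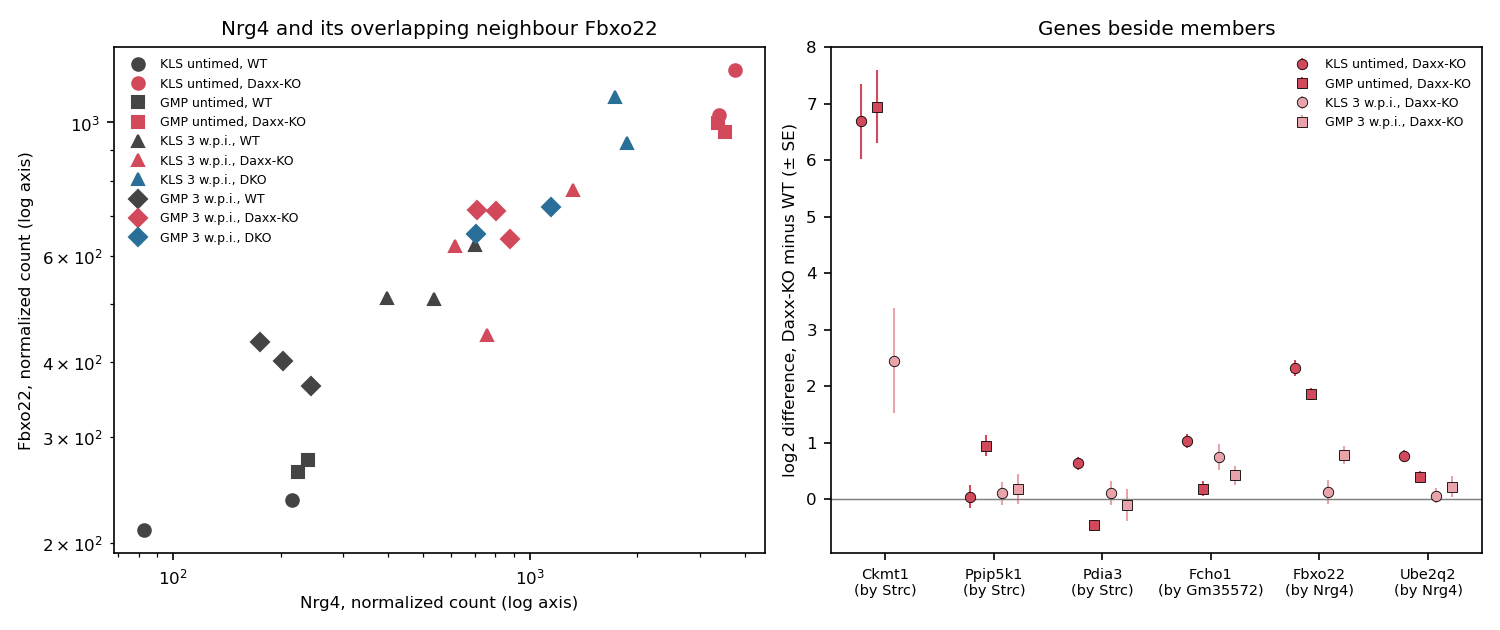
Left, normalized counts of Nrg4 and of Fbxo22, which overlaps it, on log axes with 1 point per library (24 libraries, colour for genotype, shape for table). Right, log2 difference of Daxx-KO from WT (± SE) for genes beside Strc, Gm35572 and Nrg4 in 4 tables, where Ckmt1 lies at 6.69 and 6.95 in untimed KLS cells and GMPs and has no point in GMPs at 3 w.p.i. because it was under the filter.

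The genes most like each of the 6 were found by the Pearson correlation of log2 values over the 24 libraries with a Daxx genotype, each table centred, among 11743 genes with a mean of 10 or more in every table. Libraries share their genotype, table and depth, so this is a description. Strc was most like Fbp1, the gluconeogenic fructose bisphosphatase (r = 0.920), which stood at 2623 to 3098 in untimed Daxx-KO KLS cells and 43.1 to 74.0 in WT. Nrg4 was most like its overlapping neighbour Fbxo22 (r = 0.968), then Fbp1 (r = 0.937). For Gm35572 it was Gm43305 (r = 0.904), for Cdk5rap1 Endou, an endoribonuclease (r = 0.875), for Laptm4b N4bp3 (r = 0.859) and for Ctr9 Cep85, a centrosomal protein (r = 0.843). With Daxx the 6 genes had negative correlations, between −0.887 (Strc and Gm35572) and −0.535 (Ctr9). In DKO KLS cells at 3 w.p.i. Fbp1 held 351 to 498, above WT (92.0 to 139), and Cep85 1742 to 2829, below WT (3371 to 4887), where Ctr9 overlapped WT. Daxx-KO libraries of that table held 299 to 402 of Fbp1, a range that overlapped DKO. In GMPs at 3 w.p.i. Fbp1 held 198 to 346 in DKO, above WT (106 to 189) and below Daxx-KO (442 to 653). The study reports that silencing of Fbp1 returned in DKO cells, which the KLS counts do not show, while the GMP counts lie part of the way back to WT.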

How the data were processed

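Bone marrow progenitors were profiled by bulk RNA-seq. The deposited gene tables hold normalized counts, a signal that the authors made by dividing the reads of each gene by a size factor per library, scaled separately in each table. Per the submitters' processing notes and the study's methods, reads were trimmed with cutadapt 1.13, aligned to mm10 with STAR 2.5.3 and normalized with DESeq2 1.16.1. The counter and its use of strand are not given in the sources used here. The labels name the Ovation SoLo kit for every library, while the study's methods give it for cells of transplanted mice and the SMARTer stranded kit for the 3 and 24 w.p.i. cells. Whole reads were recovered from all values above 0 within 0.01, so depths are known (3388906 to 29335964 gene reads). The precision of a ratio of few reads is given by its 95% exact interval.

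Of the gene-level columns, 36 were tied to a group through the labels and 23 were not used, because the labels of their deleted genotype, cell type or time could not be matched to a column. The WT library without a number at 3 w.p.i. was assigned from the control ending of its name in another deposited table. The libraries of the Pu.1 line and of 24 w.p.i. were assigned from such endings too and are called a and b.

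The 6 genes and all gene lists were chosen with earlier results of these data known. Genes with a mean of 10 or more over a table were tested with limma 3.58.1 (R 4.3.3, mean-variance trend) on log2(value + 1), all groups of a table in 1 fit, with Benjamini-Hochberg adjustment over all genes tested and a threshold of 0.05. Differences and their standard errors (SE) are on that scale, which understates changes of low genes. Alternatives were pseudocounts of 0.5 and 5, no filter, TMM scaling, edgeR 4.0.16 and DESeq2 1.42.0 on the recovered reads, a replicate block and leaving out each library. The block was fitted only on libraries numbered 1 or 2. In KLS cells at 3 w.p.i. it therefore also left out Daxx-KO 3 and the unnumbered WT library. The procedure was tested on simulated data. Named are the 6 genes, Daxx, called members of the lists or else their most abundant genes, neighbours that were called and the gene most correlated with each of the 6. Spi1, Erbb4, Otogl at 3 w.p.i. and uncalled neighbours shown with values were named after those values were seen. Positions come from GENCODE vM21 (mm10) and promoter sequences from RefSeq.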

Additional observations from a re-analysis of the deposited data

Results flagged for a closer look

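In the untimed tables every Daxx-KO library lay on one side of every WT library in KLS cells and on the other side in GMPs for a few genes named above. For Trim28 the log2 differences were 0.52 and −0.55, which lie 1.07 apart. For Pdia3 they were 0.64 and −0.46, which lie 1.09 apart. In the Pu.1 line Laptm4b was lower by normalized count in both Pu.1-KO libraries of KLS cells (−0.44) and higher in both of GMPs (0.31), a difference of −0.75 between the populations. In rpm its KLS libraries overlapped, at 24.3 to 26.4 in Pu.1-KO and 24.65 to 25.05 in WT, so the lower KLS values depend on the scaling. The difference between populations was not tested for any of these genes, because the 2 tables of each pair were scaled separately.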

How the results depend on the processing

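The number of genes called depended on the tool where few were called. Without the filter, 1751 genes were called in untimed KLS cells (3118 with it). DESeq2 gave 342 in Daxx-KO KLS libraries at 3 w.p.i. (39 by limma), 80 in GMPs (13) and 263 in DKO GMPs (40). In KLS cells of the Pu.1 line DESeq2 gave 1357, TMM scaling 1745 and edgeR 1920 (190 by limma), and 70.3%, 79.5% and 87.3% of these were higher (57.9% by limma), while the median of all genes moved from 0.116 to 0.266 under TMM. For Daxx-KO in KLS cells at 3 w.p.i., 58.8% of the DESeq2 calls were higher (71.8% by limma).

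Leaving out 1 library gave 419 to 3290 genes in untimed KLS cells (lowest without Daxx-KO 2), 2162 to 4448 in untimed GMPs (lowest without WT 2), 8 to 137 for Daxx-KO in KLS cells at 3 w.p.i. (without Daxx-KO 1 and without the unnumbered WT), 574 to 2975 for DKO in KLS cells, 4 to 11 for Daxx-KO and 2 to 90 for DKO in GMPs, 13 to 6905 in KLS cells and 151 to 8163 in GMPs of the Pu.1 line. With a replicate block the counts were 3343 in untimed KLS cells, 3722 in untimed GMPs, 82 for Daxx-KO and 2117 for DKO in KLS cells at 3 w.p.i. Block fits at 3 w.p.i. held neither Daxx-KO 3 nor the unnumbered WT library, so they differ from the main fit in libraries too. The shared numbers were not taken as pairs, since deviations of same-numbered libraries correlated at −0.0095, −0.111, 0.0682 and −0.0683. For DKO against Daxx-KO in KLS cells at 3 w.p.i. the value was −0.184. The crossed pairing in untimed GMPs, added after seeing the data, gave 4921. No paired analysis was possible because the GMP columns at 3 w.p.i. and those of the Pu.1 line could be tied to a group but not to a numbered sample, and names of single mice pair no WT with a deleted library.

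Of the log2 differences of the 6 genes between deleted and WT libraries, 402 of 426 alternative values moved by less than the spread between libraries, and the sign changed in 5, all for Ctr9 in DKO. The largest ones depend on the pseudocount, since Strc in untimed KLS cells ran from 7.39 (pseudocount 5) to 9.32 (DESeq2). Nrg4 in KLS cells at 3 w.p.i. was 0.15 in the block fit, which left out its highest Daxx-KO library (1323) and its lowest WT library (397). WT levels of Strc and Gm35572 rest on 1 to 22 reads per table, so their ratios are wide.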
